A study of Mus musculus with 20 samples.

Results

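The contrast described here is that of liver from mice without PPARα (knockout, KO) against liver from mice with a human PPARA transgene (hPPARa), both after perfluorooctanoic acid (PFOA). PFOA is a fluorinated fatty acid analogue that persists in the body. The libraries were chosen by genotype and exposure as their titles give them: 6 KO libraries on PFOA (3 female, 3 male) and 5 hPPARa libraries on PFOA (2 female, 3 male), 11 of the 20 libraries of the series. The other 9 libraries, 4 KO and 5 hPPARa, are vehicle controls and are used where the same genotypes are compared without PFOA. RNA came from bulk liver.

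All mice drank water that held 0.5% sucrose for 6 to 7 weeks from weaning, with PFOA at 8 µM for the PFOA groups and none for the vehicle groups. Their diet took 51.8% of its energy from carbohydrate, 33.5% from fat and 14.7% from protein. KO mice are described in the labels only as lacking PPARα. The sources used here do not give the stretch of the gene that was removed, the promoter of the human transgene, the state of the mouse gene in the hPPARa mice or the exact ages. Whether libraries of a group came from separate mice is not stated either, and the p-values measure the spread between libraries only, part or all of which may be technical.

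PPARα is a nuclear receptor of hepatocytes that binds fatty acids and, with its partner RXR, switches on genes for their uptake, transport and oxidation in peroxisomes, microsomes and mitochondria. Fibrates and many perfluorinated acids activate it. CAR and PXR are related receptors that sense foreign chemicals and switch on cytochrome P450, transferase and esterase genes, and PFOA is known to engage them in mouse liver as well. A comparison of livers without and with the receptor under the same exposure therefore asks which parts of the exposed liver's expression go with the receptor. Any other difference between the KO and the hPPARa mice goes with the genotype as well and cannot be told apart from it.

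Total counts ran from 15989252 to 17953860 in the 11 PFOA libraries. The first principal component held 33.9% of their variance and separated the genotypes, and the second held 24.3% and separated the sexes. The transcript of Ppara itself was counted in every library. It had 8.47, 15.9 and 20.6 CPM (counts scaled to library size, with TMM factors) in the KO females and 21.2, 18.4 and 25.2 CPM in the KO males, against 28.9 and 27.2 CPM in the hPPARa females and 21.3, 32.3 and 39.5 CPM in the hPPARa males. The groups overlapped, and the log2 fold change of −0.69 ± 0.22 (SE) missed the threshold by edgeR's quasi-likelihood test (adjusted p = 0.0503). It passed in 5 of 20 alternative fits, among them DESeq2 and a model of all 20 libraries. The exons removed in the knockout are not stated, so the Ppara count is no check of the labelled genotypes. KO male replicate 2 had 31.0 CPM of Xist, the female-specific transcript, against 1.41 and 0.762 CPM in the other KO males, and KO female replicate 2 had 4.07 CPM of the Y-linked Ddx3y, against 0.107 and 0 CPM in the other KO females. Counts of calls are therefore also given without these 2 libraries, called the doubted libraries below.

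**Figure D1:**
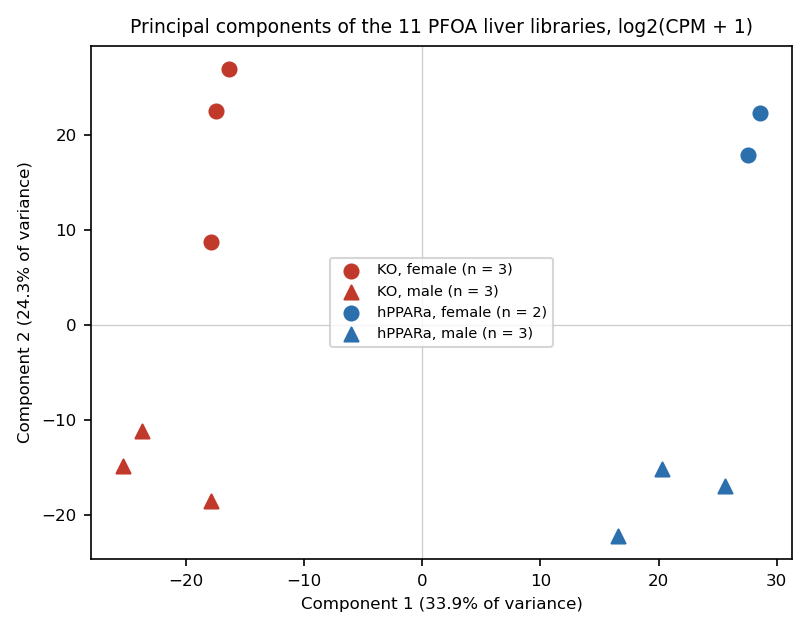
Principal components of the 11 PFOA libraries on log2(CPM + 1) of the 14441 tested genes, with component 1 across and component 2 up; colour marks the genotype and shape the sex. The 6 KO libraries lie between −16.4 and −25.3 on component 1 and the 5 hPPARa libraries between 16.6 and 28.6.

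In the livers on PFOA, genes of fatty acid oxidation, fatty acid uptake and lipid droplets were lower in KO, while genes of xenobiotic metabolism, interferon response, acute phase and complement were higher. By edgeR's quasi-likelihood test with sex as a term and Benjamini-Hochberg adjustment, 1318 genes were higher in KO (9.13% of the 14441 tested) and 1362 were lower (9.43%), together 18.6% of the genes tested. Of these, 264 were higher and 287 lower by at least 2-fold (1.83% and 1.99%). In 596 genes (4.13%) each KO library lay above each hPPARa library, and in 768 genes (5.32%) each lay below, together 9.45%. Without the 2 doubted libraries, 891 genes were higher and 865 lower. The median log2 fold change over all tested genes was 0.00663, so the lists below are read against a centre near 0. Rises and falls below are those of KO against hPPARa at the same exposure, not changes with PFOA.

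**Figure D2:**
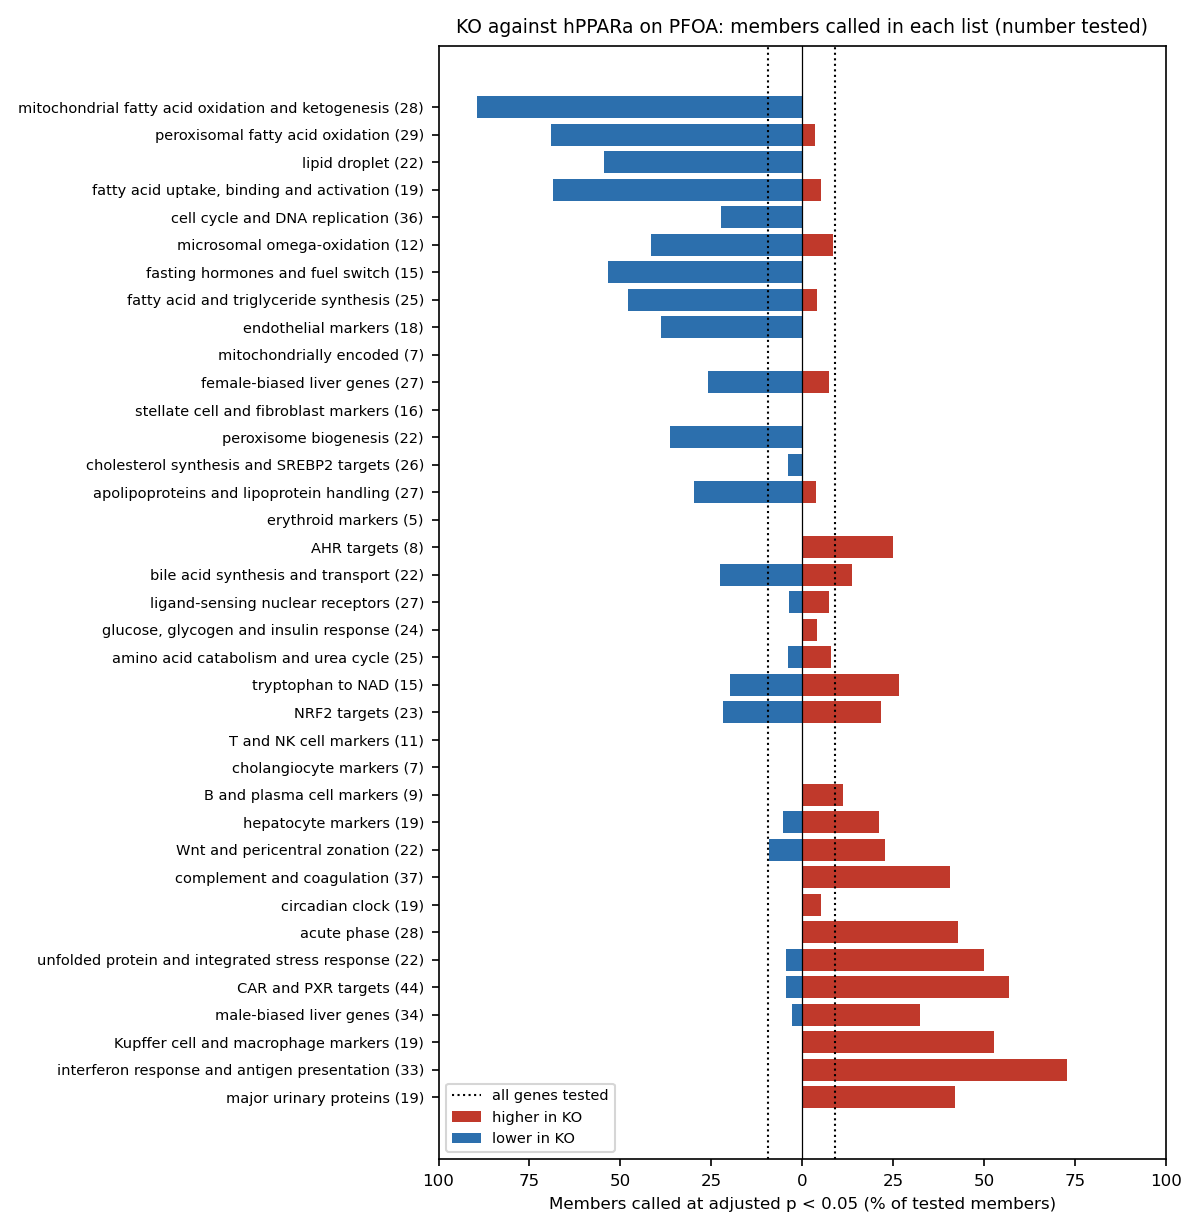
Share of each list's tested members (number in parentheses) that were higher in KO (right) or lower in KO (left) on PFOA at an adjusted p under 0.05, with lists ordered by their median log2 fold change. The dotted lines mark the shares over all 14441 tested genes, 9.13% higher and 9.43% lower; the fatty acid oxidation lists reach far to the left and the interferon list far to the right.

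The direct repeat of AGGTCA with 1 base between the copies is the classical binding motif of PPARα with RXR. Promoter windows with such a repeat are shown for 5 genes that fell in KO and are described below. The windows run from 250 bases before to 50 bases after the annotated start and are credited to RefSeq on build GRCm38.p6, which differs from the authors' build. Of 222 genes named by rule, 171 had a window, with 210 windows in all. The motif, read as AGGTCA, any base and AGGTCA again and searched on both strands with at most 1 mismatch, was in 182 of 32851 windows of this length (0.554%), and with at most 2 mismatches in 1268 (3.86%). Among the genes named by rule, 2 had a match with at most 1 mismatch (Fabp1, lower in KO, and Elovl1, higher in KO) and 8 with at most 2, among them Creb3l3, which fell in KO and whose window is not printed, and Muc1, which did not pass. These 8 genes over 210 windows are close to the share of 3.86% over all windows. The windows printed were picked for their match among genes that fell. The windows of Ehhadh, Plin5, Hsd17b11 and Cyp2b10 held none. Capitals mark the match, and each strand is given 5′ to 3′ along the gene. The Fabp1 window is chr6:71199629-71199928 (plus strand), with 1 mismatch, and the other windows printed, with 2 mismatches each, are Mogat1 at chr1:78510810-78511109 (plus), Plin2 at chr4:86670010-86670309 (minus), Cd36 at chr5:17835847-17836146 (minus) and Slc25a20 at chr9:108661886-108662185 (plus). A match is a description of these letters and not a binding site.
Fabp1: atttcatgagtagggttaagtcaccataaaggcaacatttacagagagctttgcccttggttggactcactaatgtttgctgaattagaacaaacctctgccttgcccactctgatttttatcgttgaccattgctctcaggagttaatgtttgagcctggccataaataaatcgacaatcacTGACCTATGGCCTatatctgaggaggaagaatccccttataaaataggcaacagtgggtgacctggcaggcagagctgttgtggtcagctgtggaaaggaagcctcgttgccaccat
Mogat1: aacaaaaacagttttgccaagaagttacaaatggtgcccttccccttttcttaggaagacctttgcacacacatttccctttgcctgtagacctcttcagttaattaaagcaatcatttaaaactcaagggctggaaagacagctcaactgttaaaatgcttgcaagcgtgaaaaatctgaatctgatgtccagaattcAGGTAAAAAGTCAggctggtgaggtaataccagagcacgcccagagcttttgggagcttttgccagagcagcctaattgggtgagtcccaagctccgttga
Plin2: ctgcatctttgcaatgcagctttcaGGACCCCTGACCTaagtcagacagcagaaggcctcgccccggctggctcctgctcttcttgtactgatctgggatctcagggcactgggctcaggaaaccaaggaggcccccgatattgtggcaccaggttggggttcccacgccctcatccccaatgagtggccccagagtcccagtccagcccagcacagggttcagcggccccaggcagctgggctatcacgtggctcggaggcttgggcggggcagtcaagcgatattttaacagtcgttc
Cd36: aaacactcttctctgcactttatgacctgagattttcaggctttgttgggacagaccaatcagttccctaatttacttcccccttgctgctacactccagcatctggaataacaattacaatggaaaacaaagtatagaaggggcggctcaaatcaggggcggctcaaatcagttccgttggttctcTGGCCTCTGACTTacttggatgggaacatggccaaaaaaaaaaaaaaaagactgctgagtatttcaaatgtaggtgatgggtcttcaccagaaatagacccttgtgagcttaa
Slc25a20: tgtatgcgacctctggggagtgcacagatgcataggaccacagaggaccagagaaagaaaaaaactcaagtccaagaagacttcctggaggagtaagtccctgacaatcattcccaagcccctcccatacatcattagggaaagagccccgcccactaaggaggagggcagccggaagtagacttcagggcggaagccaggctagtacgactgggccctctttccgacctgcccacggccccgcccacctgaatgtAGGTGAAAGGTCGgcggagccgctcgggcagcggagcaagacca

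Peroxisomal fatty acid oxidation genes were lower in KO livers. Of 29 tested members of that list 20 fell and 1 rose, at a median log2 fold change of −0.89. Without the 2 doubted libraries 17 fell and 1 rose. The summed level of the list was 8437 to 11690 CPM in KO livers and 19590 to 22640 CPM in hPPARa livers. Ehhadh, the bifunctional enzyme of peroxisomal β-oxidation, had 339, 512 and 396 CPM in KO females and 668, 363 and 411 CPM in KO males, against 4137 and 3275 CPM in hPPARa females and 2739, 2839 and 3008 CPM in hPPARa males. The highest KO library was far below the lowest hPPARa library, and Ehhadh was 7.14-fold lower (log2 fold change −2.84 ± 0.18, adjusted p = 1.55e-06).

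Acaa1b, the thiolase that releases the shortened acyl-CoA, had a lowest, median and highest level of 310, 382 and 586 CPM in KO livers, against 2010, 1799, 1705, 1800 and 2045 CPM in hPPARa livers. The groups did not overlap, and Acaa1b averaged 410 ± 103 CPM in KO livers (SD, n = 6) and 1872 ± 148 CPM in hPPARa livers (n = 5), a 4.55-fold difference (adjusted p = 1.25e-06). Its relative Acaa1a fell 2.04-fold. Decr2 and Eci2, which prepare unsaturated fatty acids for the spiral, were 5.66-fold and 2.85-fold lower. Acot8, a peroxisomal acyl-CoA thioesterase, had 7.24 ± 0.92 CPM in KO livers and 18.7 ± 2.33 CPM in hPPARa livers. Genes that build the peroxisome moved less: 8 of 22 tested members fell and 0 rose, with a median of −0.07. Pex11a, which promotes division of peroxisomes, was 3.32-fold lower (−1.73 ± 0.11), Pxmp4, a peroxisomal membrane protein, was 2.19-fold lower, and Pex16, Pex19 and Pex3, which insert membrane proteins, had log2 fold changes of −0.55, −0.50 and −0.45. These last 3 lost their call when a change of at least 1.5-fold was required.

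Within microsomal ω-oxidation the Cyp4a genes were far lower in KO. The Cyp4a genes encode ω-hydroxylases of fatty acids and are long known as PPARα targets in rodents. Cyp4a14 had 321, 204 and 112 CPM in KO females and 723, 70.9 and 366 CPM in KO males, against 10100 and 8402 CPM in hPPARa females and 9018, 7543 and 8978 CPM in hPPARa males. The KO libraries varied widely among themselves and lay far below the hPPARa libraries, which were close together, and the difference was 30.0-fold (log2 fold change −4.91 ± 0.58, adjusted p = 0.000553). Cyp4a10 had a lowest, median and highest level of 150, 470 and 682 CPM in KO livers, against 4904, 4083, 3923, 3750 and 4311 CPM in hPPARa livers. It was 10.6-fold lower (adjusted p = 7.78e-05). Cyp4a32 and Cyp4a31 were 36.1-fold and 28.7-fold lower. Reads may be shared among such near-identical genes here, and likewise in the Cyp2b, Cyp2c, Cyp3a, Gstm, Orm, Ifit and Acot families, so the split between members is uncertain. Aldh3a2, the dehydrogenase that takes fatty aldehydes further, averaged 410 ± 80.0 CPM in KO livers and 1239 ± 207 CPM in hPPARa livers (adjusted p = 1.66e-05). In all, 5 of 12 tested members of the list fell and 1 rose, with a median of −0.53. The member that rose was Por, the electron donor of all microsomal cytochrome P450 enzymes, at 0.54 (named after its value was seen).

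On vehicle the Cyp4a genes sat far lower in both genotypes. Cyp4a14 averaged 1.87 ± 1.84 CPM in KO livers (SD, n = 4) and 51.4 ± 42.9 CPM in hPPARa livers (n = 5) without PFOA, and Cyp4a10 averaged 1.44 CPM in KO and 43.7 CPM in hPPARa. The genotype contrast without PFOA missed the threshold for both genes (adjusted p = 0.26 and 0.151, edgeR), with log2 fold changes of −3.31 and −3.92. The term that compares the genotype contrast on PFOA with that on vehicle did not pass for either gene (adjusted p = 0.832 and 0.761).

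Mitochondrial oxidation changed across nearly its whole list. Of 28 tested genes of mitochondrial β-oxidation and ketone body synthesis, 25 fell and 0 rose (23 and 0 without the doubted libraries), at a median log2 fold change of −0.90. Slc25a20, the carnitine-acylcarnitine carrier of the inner membrane, had a lowest, median and highest level of 52.3, 58.1 and 62.9 CPM in KO livers, against 177, 166, 189, 186 and 180 CPM in hPPARa livers. Both groups were tight and lay well apart, and the 3.08-fold fall had the smallest adjusted p of all genes tested (8.99e-09), shared with Hsd17b11. Cpt2, which hands the acyl group back to CoA inside the mitochondrion, averaged 87.7 ± 7.55 CPM in KO livers and 258 ± 15.2 CPM in hPPARa livers (adjusted p = 5.75e-08). Eci1, the mitochondrial enoyl-CoA isomerase, fell 2.74-fold, Etfdh, which passes the electrons to the respiratory chain, fell 2.54-fold, and Acads, the short-chain dehydrogenase, fell 1.85-fold. The members that did not pass were Cpt1a, the rate-limiting carnitine transferase, at a log2 fold change of −0.16, Bdh1 of ketone body synthesis at −0.04 and the uncoupling protein Ucp2 at −0.95, all 3 named because so few missed. Transcripts of the mitochondrial genome gave 0 calls by edgeR among 7 tested, 0 at an unadjusted p under 0.05 and 0 in each alternative, DESeq2 included, with a median of −0.09. Their share of all counts was 7.27% to 9.66% in KO livers and 6.62% to 12.9% in hPPARa livers.

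Genes of fatty acid uptake and activation fell with the oxidation genes: 13 of 19 tested members fell and 1, Acsm1, rose (11 and 2 without the doubted libraries), and the median was −0.65. Acsm1, a mitochondrial activator of medium-chain acids named after its value was seen, had a log2 fold change of 0.53 ± 0.11. Cd36, the membrane translocase for fatty acids, had 38.3, 38.4 and 58.7 CPM in KO females and 36.8, 22.7 and 27.7 CPM in KO males, against 169 and 159 CPM in hPPARa females and 196, 170 and 225 CPM in hPPARa males. Each KO value was below each hPPARa value, and the fall was 5.15-fold (−2.36 ± 0.21, adjusted p = 3.40e-05). Fabp1, the abundant liver fatty acid binding protein, averaged 3945 ± 490 CPM in KO livers and 8897 ± 964 CPM in hPPARa livers, 2.23-fold lower in KO (adjusted p = 1.23e-05). Slc27a2 and Acsl5, which couple fatty acids to CoA, were 1.96-fold and 1.84-fold lower, and Acbd5, a peroxisomal acyl-CoA binding protein, had a log2 fold change of −0.64 ± 0.08.

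Fuel-switch genes of fasting gave 8 falls and 0 rises among 15 tested members, with a median of −0.43. Without the doubted libraries the falls were 5. Vnn1, a pantetheinase of coenzyme A turnover, was 16.8-fold lower, with 13.1 ± 7.97 CPM in KO livers and 230 ± 54.9 CPM in hPPARa livers. Retsat, a retinol saturase, was 5.50-fold lower, and Txnip, a thioredoxin-binding regulator of glucose uptake, was 2.46-fold lower at 65.2 ± 6.87 CPM in KO livers and 161 ± 19.0 CPM in hPPARa livers. Angptl4, the secreted inhibitor of lipoprotein lipase, fell 2.26-fold. Pdk4, the kinase that shuts pyruvate out of oxidation, had a lowest, median and highest level of 4.07, 6.75 and 10.7 CPM in KO livers, against 14.7, 18.3, 51.2, 14.0 and 29.5 CPM in hPPARa livers. Its groups did not overlap, but the call (adjusted p = 0.01) was lost without the 2 doubted libraries (adjusted p = 0.0966). Fgf21, the fasting hormone of liver, had 0.0551 to 0.879 CPM in KO livers, against 0.456 to 2.497 CPM in 4 hPPARa livers and 9.38 CPM in hPPARa male replicate 3. Its call (adjusted p = 0.0401) was lost in 12 of the 20 alternatives, among them the fit without that library (adjusted p = 0.0573).

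Coat proteins and enzymes of lipid droplets were lower in KO. Of 22 tested members, 12 fell and 0 rose (11 and 0 without the doubted libraries), with a median of −0.73. Plin5, the perilipin that ties droplets to mitochondria, had 2.25, 1.16 and 1.80 CPM in KO females and 2.53, 1.93 and 2.17 CPM in KO males, against 33.1 and 37.9 CPM in hPPARa females and 34.5, 29.0 and 22.1 CPM in hPPARa males. The 15.9-fold gap was much wider than the spread within either group (−3.99 ± 0.18, adjusted p = 5.34e-08). Mogat1, an acyltransferase that makes diacylglycerol, had a lowest, median and highest level of 0, 0.341 and 2.36 CPM in KO livers, against 11.6, 7.47, 29.7, 22.7 and 23.2 CPM in hPPARa livers. It was 24.0-fold lower (adjusted p = 4.52e-05), with the males of both genotypes holding the higher values. Fitm1, which helps droplets form, was 14.8-fold lower, and Cidec, a droplet fusion protein, averaged 5.83 ± 2.39 CPM in KO livers and 24.2 ± 14.1 CPM in hPPARa livers (adjusted p = 0.000385). Plin2, the main droplet coat of liver, averaged 213 ± 39.6 CPM in KO and 674 ± 138 CPM in hPPARa (adjusted p = 2.83e-06). Hsd17b11, a droplet-bound dehydrogenase, averaged 139 ± 24.0 CPM in KO and 611 ± 69.8 CPM in hPPARa, 4.32-fold lower.

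Synthesis of fatty acids and triglycerides gave 12 falls and 1 rise among 25 tested members, with a median of −0.41 (9 and 1 without the doubted libraries, and 7 and 1 without hPPARa female replicate 2). Srebf1, the transcription factor of lipogenesis, averaged 90.8 ± 33.9 CPM in KO and 255 ± 40.2 CPM in hPPARa (adjusted p = 0.000352). Fasn, the fatty acid synthase, had a lowest, median and highest level of 42.6, 115 and 173 CPM in KO livers, against 280, 302, 311, 272 and 282 CPM in hPPARa livers. Its hPPARa values were nearly equal while its KO values ran over a wide range below them (log2 fold change −1.39 ± 0.32, adjusted p = 0.0141). The elongase Elovl5, the desaturase Fads2 and the acyltransferase Gpam were 2.03-fold, 1.81-fold and 1.56-fold lower. The member that rose was Elovl1, an elongase of very long chains, at 107 ± 11.7 CPM in KO and 68.4 ± 3.78 CPM in hPPARa (adjusted p = 0.000102). Cholesterol synthesis differed: 1 of 26 tested members, Pmvk, fell and 0 rose, with a median of −0.05, and 3.85% called is below the 18.6% over all genes.

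Bile and lipoprotein genes split. Abcg5, a subunit of the canalicular sterol exporter, averaged 49.1 ± 8.15 CPM in KO and 124 ± 45.4 CPM in hPPARa (adjusted p = 5.52e-05), and Abcb4, the phospholipid exporter, had 175 ± 26.2 CPM in KO and 301 ± 12.5 CPM in hPPARa. Slc10a1, the basolateral uptake carrier of bile acids, was higher at 1473 ± 125 CPM in KO and 883 ± 118 CPM in hPPARa, as was Cyp2c70, which makes muricholic acids in mouse, at 1.94-fold. Cyp7a1, which opens bile acid synthesis, had 27.4 to 106 CPM in KO and 15.96 to 239 CPM in hPPARa and did not pass (log2 fold change −0.87 ± 0.63, adjusted p = 0.379). The bile acid list as a whole had 3 rises and 5 falls among 22 tested members. Of 27 lipoprotein genes 8 fell and 1 rose (4 and 1 without the doubted libraries, 4 and 0 without KO male replicate 2, 5 and 0 without hPPARa female replicate 2), with the phospholipid transfer protein Pltp 3.99-fold lower, the endothelial lipase Lipg 4.43-fold lower and Apoe at a log2 fold change of −0.39 ± 0.08 (adjusted p = 0.00557).

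**Figure D3:**
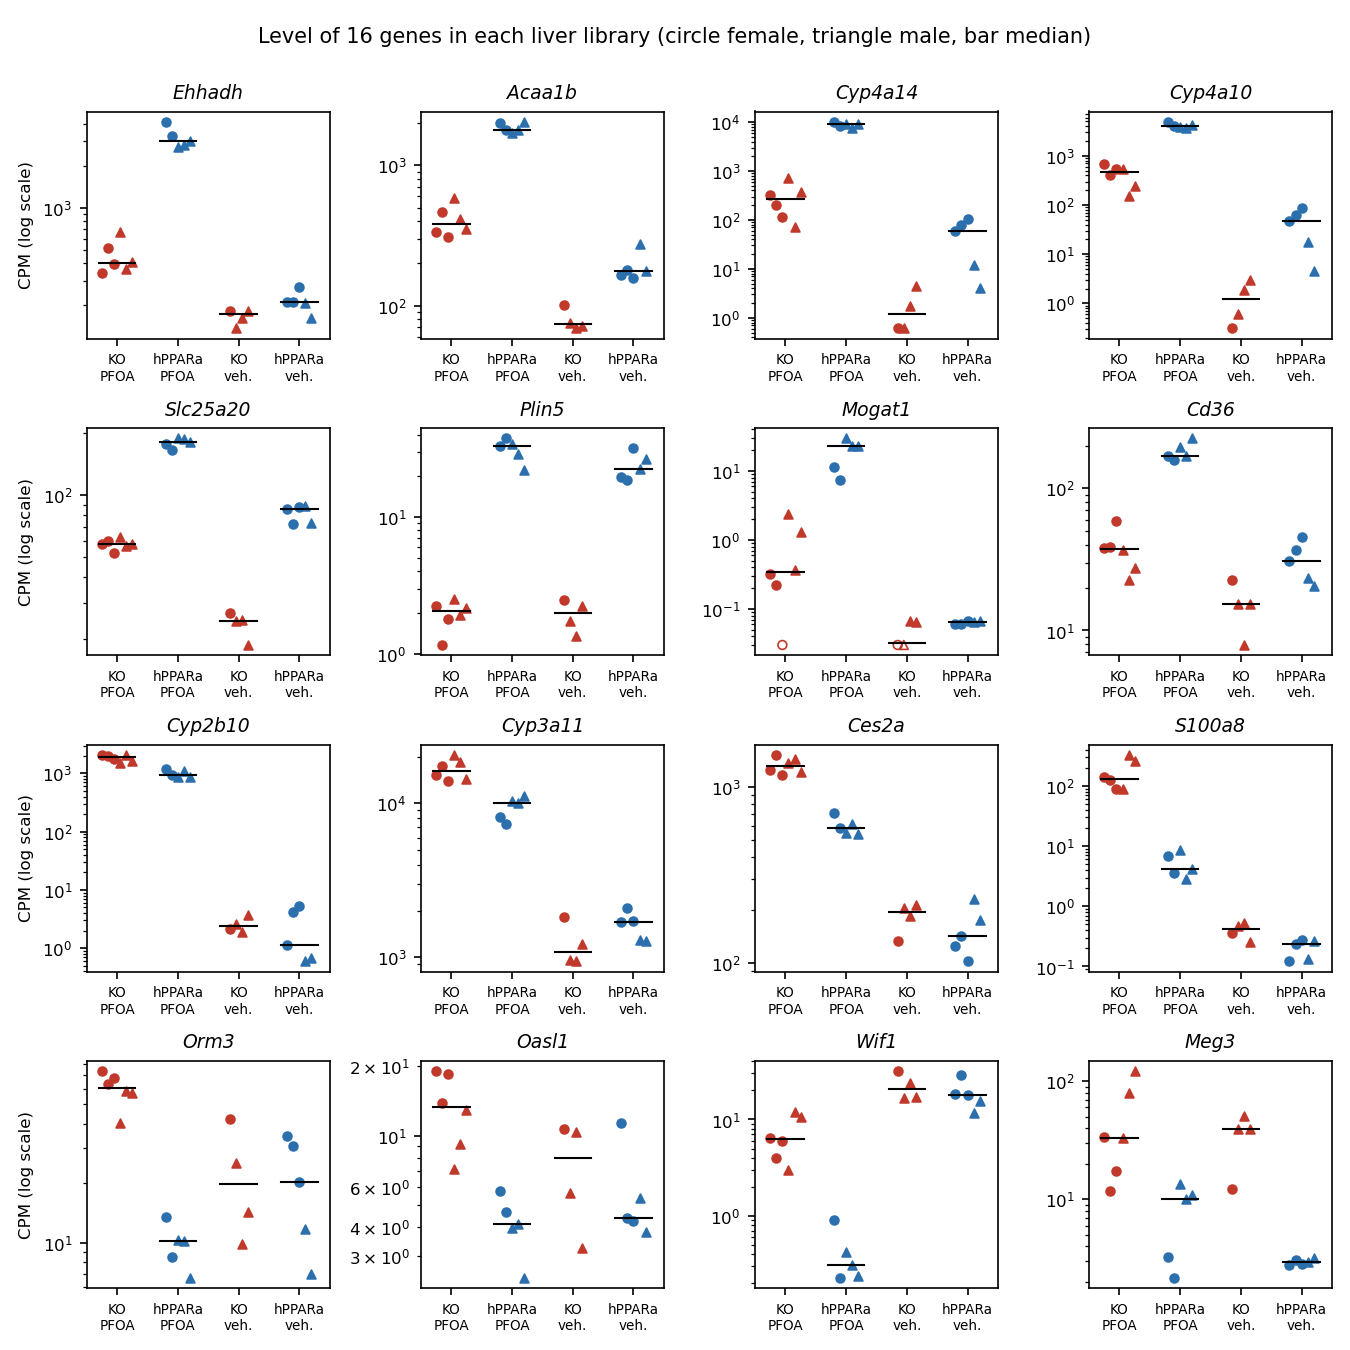
Level of 16 genes in each library in CPM on log axes, with the groups in the order KO on PFOA, hPPARa on PFOA, KO on vehicle and hPPARa on vehicle; circles are females, triangles males, bars medians and open symbols libraries at 0, drawn at the foot of the panel. Ehhadh, Acaa1b, Cd36 and Mogat1 stand high in hPPARa on PFOA alone among the 4 groups, S100a8 in KO on PFOA, and Cyp2b10 is high in both genotypes on PFOA, between 864 and 2081 CPM, and under 6 CPM on vehicle.

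Targets of CAR and PXR went the other way. Of 44 tested members 25 rose in KO and 2 fell, at a median log2 fold change of 0.54. Without the doubted libraries 21 rose and 1 fell. The summed level of the list was 49590 to 63620 CPM in KO livers and 34760 to 38950 CPM in hPPARa livers. Cyp2b10, the classical readout of CAR, had 2081, 2020 and 1781 CPM in KO females and 1530, 2081 and 1649 CPM in KO males, against 1170 and 948 CPM in hPPARa females and 864, 1078 and 871 CPM in hPPARa males. Each KO library was above each hPPARa library, by 1.86-fold on average (log2 fold change 0.90 ± 0.11, adjusted p = 0.000101). In a model of all 20 libraries the call was lost (adjusted p = 0.0978).

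Cyp3a11, the readout of PXR, had a lowest, median and highest level of 14000, 16360 and 20720 CPM in KO livers, against 8211, 7394, 10440, 10110 and 11200 CPM in hPPARa livers. The groups were apart and the rise was 1.82-fold (adjusted p = 0.00019). Ces2a, a carboxylesterase, averaged 1328 ± 138 CPM in KO livers and 598 ± 67.3 CPM in hPPARa livers (adjusted p = 6.86e-06). Among the glutathione transferases Gstm2 was 2.92-fold higher and Gstm3 3.30-fold higher, and among the Cyp2c genes Cyp2c50, Cyp2c54 and Cyp2c66 were 1.94-fold, 2.08-fold and 5.19-fold higher. Sult1e1, the estrogen sulfotransferase, had a lowest, median and highest level of 21.4, 49.4 and 78.4 CPM in KO livers, against 2.64, 9.92, 0.731, 5.61 and 9.68 CPM in hPPARa livers, an 8.84-fold rise (adjusted p = 0.00639). Of the 2 that fell, Cyp2b9 had 123 ± 118 CPM in KO and 267 ± 161 CPM in hPPARa (adjusted p = 0.0149; named after its value was seen). Its groups overlapped and the call was lost in 4 of 20 alternatives, with an adjusted p of up to 0.414 without the sex term. Abcc4, an export pump, lost its call without the doubted libraries. The receptor PXR itself, Nr1i2, was lower at 77.6 ± 9.12 CPM in KO and 108 ± 8.40 CPM in hPPARa (adjusted p = 0.00317). Lists of other sensors had smaller shares called, 25% for AHR targets and 43.5% for NRF2 targets. These stand against 61.4% for the CAR and PXR list and 18.6% over all genes. AHR targets gave 2 rises and 0 falls of 8, with Cyp1a2 1.596-fold higher, and NRF2 targets 5 rises and 5 falls of 23 (3 and 3 without the doubted libraries).

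Interferon-stimulated genes were higher in KO livers than in hPPARa livers. Of 33 tested members 24 rose and 0 fell, at a median log2 fold change of 0.85, and 21 rose without the doubted libraries. The summed level of the list on PFOA was 3128 to 4433 CPM in KO and 2753 to 3501 CPM in hPPARa. On vehicle it was 3924 to 4348 CPM in KO and 3695 to 5124 CPM in hPPARa, so the KO sums were not raised on PFOA. Such sums are led by the most abundant members. Oasl1, of the oligoadenylate synthetase family, had 19.0, 13.8 and 18.5 CPM in KO females and 7.14, 9.21 and 12.9 CPM in KO males. It had 5.74 and 4.67 CPM in hPPARa females and 3.96, 4.11 and 2.41 CPM in hPPARa males. The lowest KO male was above the highest hPPARa female (log2 fold change 1.59 ± 0.18, adjusted p = 8.14e-05). Rsad2 (viperin), Usp18, which removes the ubiquitin-like ISG15 from proteins, and Ifit3, an RNA-binding effector, were 3.23-fold, 3.84-fold and 3.07-fold higher. The members that did not pass included the antigen presentation genes Psmb8, Psmb9, Tap1, H2-K1 and H2-D1, with log2 fold changes of −0.01 to 0.25. The count was 15 without hPPARa female replicate 1 and 13 in a model of all 20 libraries. Within the sexes, 21 members passed in females and 8 in males, while 0 passed the term for a difference between the sexes by edgeR (3 at an unadjusted p under 0.05).

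Acute phase and complement genes were also higher in KO than in hPPARa. The acute phase list summed to 15550 to 21400 CPM in KO and 12270 to 16680 CPM in hPPARa on PFOA. On vehicle it summed to 15980 to 18170 CPM in KO and 14720 to 18770 CPM in hPPARa. The complement list summed to 32620 to 40190 CPM in KO and 25350 to 36240 CPM in hPPARa on PFOA. Its vehicle sums were 35470 to 45300 CPM in KO and 33090 to 38360 CPM in hPPARa. Of 28 tested acute phase members 12 rose and 0 fell (median 0.45), a count that was 6 without KO male replicate 3 and 7 without hPPARa female replicate 2. Of 37 complement and coagulation members 15 rose and 0 fell (median 0.23). This count moved in 2 of 20 alternatives, the fit without the sex term and the 1.5-fold requirement. Orm3, an orosomucoid of plasma, had a lowest, median and highest level of 40.1, 60.7 and 73.3 CPM in KO livers, against 13.5, 8.49, 10.4, 10.3 and 6.68 CPM in hPPARa livers. The groups were far apart, by 5.92-fold (adjusted p = 1.05e-06). Orm2 was 2.88-fold higher, and the C-reactive protein gene Crp averaged 764 ± 126 CPM in KO and 460 ± 25.9 CPM in hPPARa. Complement C2 averaged 63.0 ± 6.33 CPM in KO and 35.0 ± 3.15 CPM in hPPARa (adjusted p = 3.49e-06), and C1ra and Hc (complement C5) were 1.55-fold and 1.47-fold higher. The hepatocyte serum protein Alb went the other way, with a log2 fold change of −0.69 ± 0.11 (adjusted p = 0.000647), while Serpina1a and Ahsg rose.

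Markers of other liver cells moved with these groups. In bulk tissue a change in the number of cells of a type and a change in RNA per cell cannot be told apart. Of 19 tested Kupffer cell and macrophage markers 10 rose and 0 fell (9 and 0 without the doubted libraries), and their summed level was 362 to 594 CPM in KO livers and 175 to 448 CPM in hPPARa livers. Cd68 of lysosomes and Clec4f, a lectin of Kupffer cells, were 1.78-fold and 1.69-fold higher. The complement calls C1qa, C1qb and C1qc are macrophage genes. Within the sexes, 12 macrophage markers rose in males and 0 in females, while 0 passed the term for a difference between the sexes by edgeR (8 at an unadjusted p under 0.05). Of 18 endothelial markers 7 fell and 0 rose, with Stab1 at −0.58 ± 0.11 and Kdr at −0.47 ± 0.10, and their summed level was 432 to 531 CPM in KO and 512 to 649 CPM in hPPARa. Stellate, cholangiocyte, T and NK cell and erythroid markers gave 0 calls by edgeR among 16, 7, 11 and 5 tested members, with 0, 1, 1 and 0 at an unadjusted p under 0.05 and at most 1 call in any alternative, DESeq2 included. The part of macrophage or endothelial cells in the interferon, acute phase and complement results was not tested.

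S100a8, a subunit of the calcium-binding protein calprotectin, had 138, 126 and 89.2 CPM in KO females and 88.2, 327 and 258 CPM in KO males, against 6.80 and 3.59 CPM in hPPARa females and 8.53, 2.87 and 4.21 CPM in hPPARa males. The lowest KO library was far above the highest hPPARa library (log2 fold change 5.02 ± 0.48, 32.4-fold, adjusted p = 0.00015). It is a defining transcript of neutrophils, so the other markers of these cells are given beside it. Its partner S100a9 averaged 1.01 ± 0.78 CPM in KO and 0.57 ± 0.31 CPM in hPPARa and did not pass (adjusted p = 0.247), nor did Csf3r. Lcn2, which hepatocytes also make, averaged 20.5 ± 12.5 CPM in KO and 9.63 ± 3.24 CPM in hPPARa and missed the threshold (adjusted p = 0.0611), but it passed in 5 of 20 alternatives, among them DESeq2 (adjusted p = 0.00462) and the fit without the doubted libraries (adjusted p = 0.0335). The other 10 markers on the list, among them Mpo, Elane, Camp and Mmp8, were too low to test, with no library above 0.685 CPM, and Ly6g was at 0 in each KO library. On vehicle S100a8 averaged 0.405 CPM in KO and 0.206 CPM in hPPARa.

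Stress and growth genes were divided. Of 22 tested members of the unfolded protein and integrated stress response list 11 rose and 1, Fgf21, fell (8 and 0 without the doubted libraries, and 6 and 0 without hPPARa female replicate 1 or hPPARa male replicate 3), with a median of 0.51. Ddit3 (CHOP) was 2.45-fold higher, Trib3, a pseudokinase it induces, had 112 ± 49.1 CPM in KO and 43.3 ± 5.70 CPM in hPPARa, and Atf4 and Xbp1, both transcription factors of these pathways, were 1.45-fold and 1.73-fold higher. Of 36 cell cycle and DNA replication members 8 fell and 0 rose, but this count moved in 12 of 20 alternatives, between 0 and 14. It was 2 without the doubted libraries, 2 without either hPPARa female, 3 or 4 without any single KO female and 4 without KO male replicate 1 or hPPARa male replicate 2. Within the sexes, 16 members fell in females and 1 in males, while 0 passed the term for a difference between the sexes by edgeR (14 at an unadjusted p under 0.05). Cdk1 had a lowest, median and highest level of 1.24, 1.84 and 2.81 CPM in KO livers, against 4.89, 8.09, 4.08, 3.99 and 2.53 CPM in hPPARa livers. The hPPARa females held the 2 highest values, and the groups overlapped (adjusted p = 0.00273). Mcm3, a subunit of the replicative helicase, was 1.80-fold lower.

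Several of the largest rises lay outside these pathways. Wif1, a secreted inhibitor of Wnt, had 6.49, 4.02 and 6.03 CPM in KO females and 2.98, 12.04 and 10.5 CPM in KO males, against 0.900 and 0.228 CPM in hPPARa females and 0.426, 0.311 and 0.241 CPM in hPPARa males. It was 16.2-fold higher in KO (adjusted p = 0.000247), while on vehicle both genotypes held more of it, 22.3 ± 6.89 CPM in KO and 18.5 ± 6.38 CPM in hPPARa. Cyp2d12 was 17.0-fold higher, Slc13a2, a carrier of dicarboxylates, 9.67-fold, and Nebl, an actin-binding protein, had 20.4 ± 5.76 CPM in KO and 2.17 ± 1.02 CPM in hPPARa. Sertm1, a small membrane protein, had 308 counts over the 6 KO libraries and 2 over the 5 hPPARa libraries, a ratio of 125 relative to total counts, with an exact 95% interval of 34.3 to 1040 that covers counting error only. The pheromone-binding urinary protein Mup19 was 40.2-fold higher by the fit (adjusted p = 0.00955), with overlapping values of 8.40 to 753 CPM in KO livers and 1.82 to 26.4 CPM in hPPARa livers. In its family, whose near-identical members can share reads, 8 of 19 tested genes rose and 0 fell, a count that was 15 without hPPARa male replicate 2 and 2 without the sex term. At the other end, Esrrg, an orphan nuclear receptor, had 0 to 0.234 CPM in KO livers and 1.58 to 4.69 CPM in hPPARa livers, and Gal3st1, which makes sulfatide, had 0.303 ± 0.124 CPM in KO and 6.70 ± 2.48 CPM in hPPARa.

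The same contrast was asked within each sex, in a fit of all PFOA libraries together. The calls of the sexes share an estimate of spread and are not independent. Within females 630 genes were higher and 711 lower in KO (4.36% and 4.92%, together 9.29%), and in males 580 were higher and 713 lower (4.02% and 4.94%, together 8.95%). Of the 583 genes called in both, 252 were higher and 329 lower in both sexes, which is 43.5% of the female calls and 45.1% of the male calls. Without hPPARa female replicate 1 or 2, which leaves a single hPPARa female assumed to vary like the other groups, 318 and 240 genes were called in females, and without KO male replicate 2 or 3 the male count was 704 and 638. Of the 1341 genes called in females, 1246 (92.9%) had the same sign in males. A term for the difference between the sexes called 0 genes by edgeR, with 1182 at an unadjusted p under 0.05, and 47 by DESeq2. The smallest adjusted p was that of Esco2, which acetylates cohesin, at 0.056: its log2 fold change was −2.11 in females and 0.56 in males. Acot3, a peroxisomal thioesterase, came next, with 98.7, 82.5 and 85.7 CPM in KO females and 17.3, 16.7 and 19.9 CPM in KO males, against 107 and 108 CPM in hPPARa females and 110, 99.0 and 205 CPM in hPPARa males. The KO males stood apart from the other libraries, but the term missed the threshold (log2 difference, males minus females, −2.68, adjusted p = 0.0793).

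**Figure D4:**
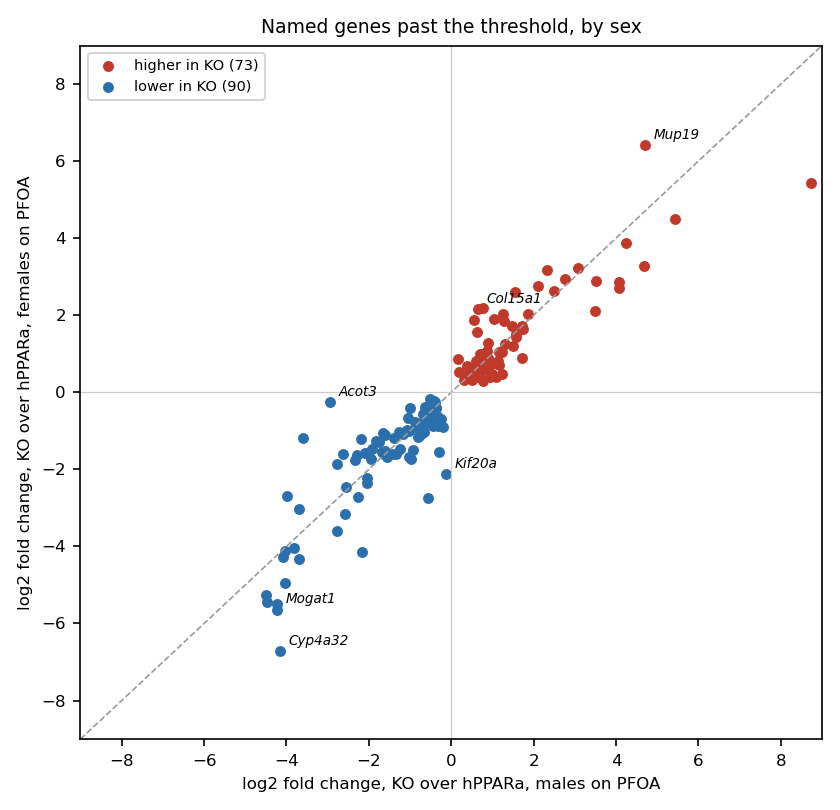
Log2 fold change of KO over hPPARa on PFOA in females (up) against males (across) for the 163 genes named by rule that passed in the joint fit, 73 higher and 90 lower in KO; the dashed line marks equal change. Genes were chosen on the fit of both sexes together, so their shared signs are a description; Acot3 is at −2.94 in males and −0.26 in females.

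The share of the genotype contrast that was also there without PFOA was asked in the vehicle libraries, which share no library with the PFOA contrast. On vehicle 109 genes were higher and 115 lower in KO (0.766% and 0.808% of 14228 tested, together 1.57%). The total of 224 was 67 without the single KO female, 125 without KO male replicate 1, 119 without hPPARa female replicate 2, and 105 and 96 without hPPARa male replicate 1 and 2. Of 13839 genes tested in both, 137 were called in both, 5.35% of the PFOA calls and 62.8% of the vehicle calls, and 133 of them had the same sign. Of the 2562 genes called on PFOA and tested in both, 2023 (79%) had the same sign on vehicle, whether or not they passed there. Slc25a20 was among these, with a log2 fold change of −1.62 on PFOA and −1.75 on vehicle (adjusted p = 2.15e-05). So were Plin5, at −3.99 on PFOA and −3.58 on vehicle, and Eci2, at −1.51 on PFOA and −1.55 on vehicle. Slc25a20 and Eci2 were exceptions in their lists, where most members had a more negative contrast on PFOA than on vehicle. This held for 27 of 28 mitochondrial and 23 of 29 peroxisomal members. The peroxisomal list had 4 falls and 0 rises of 29 on vehicle (16 at an unadjusted p under 0.05, median −0.41) and the mitochondrial list 6 and 0 of 28 (18 at an unadjusted p under 0.05, median −0.36). The lipid droplet list of Plin5 had 1 fall and 0 rises of 20 there (7 at an unadjusted p under 0.05, median 0.04). On vehicle the CAR and PXR list had 0 and 0 of 42 (13 at an unadjusted p under 0.05) and the interferon list 0 and 0 of 33 (2 at an unadjusted p under 0.05). The complement list had 4 rises and 0 falls of 38 on vehicle, and the acute phase list 2 rises and 0 falls of 28.

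A joint model of the 20 libraries then tested, gene by gene, whether the genotype contrast on PFOA differed from that on vehicle; this term uses the PFOA libraries of the contrast itself. It called 70 genes in the positive and 116 in the negative direction (0.466% and 0.773% of 15006 tested), and 39 in all without the 2 doubted libraries and the KO vehicle female, which also had Y-linked transcripts. The total of 186 was 93 without KO male replicate 2 on PFOA, 75 and 91 without hPPARa female replicate 1 and 2 on PFOA, and 81 without the KO vehicle female. Ehhadh had a term of −2.52 (adjusted p = 2.89e-06): its genotype contrast was −2.84 on PFOA and −0.26 on vehicle, where it averaged 166 ± 21.6 CPM in KO and 213 ± 38.7 CPM in hPPARa. Hsd17b11 had a term of −1.78 (adjusted p = 2.23e-06) and Acot8 one of −0.92 (adjusted p = 0.00173). Chrna2, a nicotinic receptor subunit, averaged 2.36 ± 1.83 CPM in KO and 16.2 ± 2.997 CPM in hPPARa on PFOA, and 4.84 CPM in KO and 2.15 CPM in hPPARa on vehicle. Its term was −3.26 (adjusted p = 0.0003). Serinc2, of the serine incorporator family, had a contrast of −4.16 on PFOA (adjusted p = 3.49e-06) and 2.45 on vehicle (adjusted p = 0.0212), with a term of −6.22 (adjusted p = 0.002). In the lists, 8 CAR and PXR targets had a positive term and 0 a negative one. Of the mitochondrial members 6 had a negative term and 0 a positive one, and of the 22 lipid droplet members 4 and 0. Of the 33 interferon members the term called 0 in either direction by edgeR, as it did of the 38 complement and coagulation members. Of the 28 acute phase members 2 had a positive term and 0 a negative one.

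**Figure D5:**
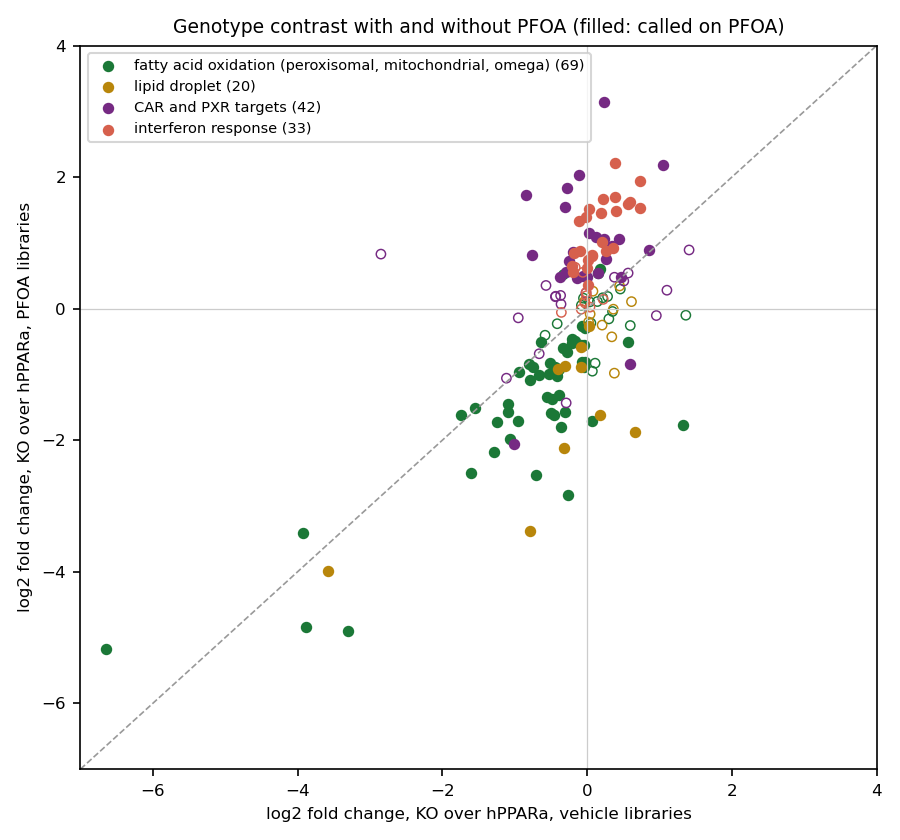
Log2 fold change of KO over hPPARa on PFOA (up) and on vehicle (across) for the members of 4 groups of lists tested in both; filled symbols passed the threshold on PFOA and the dashed line marks equal change. Of 69 fatty acid oxidation genes 56 lie below the line: 27 of 28 mitochondrial, 23 of 29 peroxisomal and 6 of 12 ω-oxidation genes. Of 33 interferon genes 31 lie above it. The genotype by exposure term called 0 of these 33, so their place above the line is a description. Of 20 lipid droplet genes 18 lie below the line, and their median on vehicle is 0.04. Plin5 is far negative on both axes, at −3.99 and −3.58.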

How the data were processed

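Liver RNA was sequenced in 20 libraries, of which the 11 on PFOA enter the main contrast. Per the labels' protocols, RNA was extracted with a Direct-zol kit. The deposited values are raw counts per gene. Build GRCm39 and the tools STAR 2.5.3, featureCounts 1.6.1, cutadapt 1.15, edgeR 3.36.0, FastQC 0.11.5 and R 4.1.0 are named in the submitters' processing notes. The sources used here give neither their roles nor the annotation or strandedness, so reads of overlapping, antisense or near-identical genes may be shared.

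The count tables were joined by gene symbol (53599 genes, 0 rows naming no gene). Each genotype has its own count table, so a difference between the tables cannot be told apart from the genotype. Genes were kept at a count of at least 10 at the median library size in at least 2 libraries and 15 in total. edgeR 4.0.16 (R 4.3.3) with TMM factors and the quasi-likelihood test was fitted with genotype and sex; p-values were adjusted by Benjamini-Hochberg over all tested genes, with a threshold of 0.05. CPM values use TMM-scaled totals. A further fit of all PFOA libraries together gave the contrast within each sex and the genotype by sex term. The sexes share its estimate of spread: without KO male replicate 2 the female calls went from 1341 to 1076. Separate fits gave the vehicle contrast and, over 20 libraries, the genotype by exposure term. On data simulated once with 200 changed genes, the PFOA fit recovered 52.2%, 77.6% and 92.4% of genes changed 1.5-fold, 2-fold and 4-fold. Of its 156 calls 8 were false. Far fewer genes were changed there than were called in the data, so these shares are no estimate for the real contrast. Replicates correlated at 0.983 to 0.994 (log2 CPM) and differed by more than counting noise. Alternatives included RLE factors, no filter, DESeq2 1.42.0, glmTreat at 1.5-fold and leaving out libraries.

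The contrast, the 40 gene lists and the tests were chosen with earlier results of these data known. Genes named are the 12 highest and 12 lowest log2 fold changes among called genes that average 1 CPM or more and carry no symbol of a predicted gene, up to 5 members per list by adjusted p, the 8 leading genes of each interaction term by adjusted p, and a fixed set of well-known markers. Other genes named, among them members that did not pass, were added after their values were seen. Some genes of the rule and lists are not reported here.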

Additional observations from a re-analysis of the deposited data

Results flagged for a closer look

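The genotype contrast on PFOA differed from that on vehicle by the genotype by exposure term, given as a log2 difference, in the 8 named genes with the smallest adjusted p. The values were −1.7763 for Hsd17b11, −2.5183 for Ehhadh, −3.2612 for Chrna2, −3.2888 for Bhlhb9, −0.9217 for Acot8, −6.2221 for Serinc2, −0.7001 for Acsf3, an acyl-CoA synthetase of mitochondria, and −1.6185 for Nrp2, a semaphorin receptor. Bhlhb9 averaged 0.813 ± 0.277 CPM in KO livers and 7.31 ± 2.26 CPM in hPPARa livers on PFOA (SD, n = 6 and 5), and 0.883 CPM in KO and 1.07 CPM in hPPARa on vehicle. Nrp2 averaged 14.6 ± 4.61 CPM in KO and 29.6 ± 8.01 CPM in hPPARa on PFOA, and 17.8 CPM in KO and 15.1 CPM in hPPARa on vehicle.

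Among 70 groups of libraries examined over 35 genes, 2 held a library far from the rest, both for Fgf21: KO male replicate 3 had 0.879 CPM and hPPARa male replicate 3 had 9.383 CPM. Chance alone gives about 1 in 20 groups.

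Transcripts of the other sex were present in 2 KO libraries on PFOA. KO male replicate 2 had 31.01 CPM of Xist, and in KO female replicate 2 the Y-linked Ddx3y was at 4.074 CPM and Eif2s3y at 4.68 CPM. Their part in the results was not tested beyond leaving both libraries out.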

How the results depend on the processing

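The PFOA contrast called 2680 genes, 1756 without the 2 doubted libraries, 303 when a change of at least 1.5-fold was required (126 higher, 177 lower), and 1840 to 2711 when each library was left out in turn. A fit with a replicate block within sex called 1669 (830 higher, 839 lower). Same-numbered libraries of the 2 genotypes correlated at −0.141 to 0.0902 once their group means were taken out. With 2 or 3 libraries in a group such values are tied to one another, so they cannot decide whether the numbers pair the samples. The labels do not state a pairing. In females the 1341 calls became 703 without the doubted libraries and 240 to 1682 with single libraries left out; in males the 1293 became 677 and 638 to 1305. The sex term called 0 genes, 204 with no filter on low counts, 47 with DESeq2 and 0 to 5 with single libraries left out. The vehicle contrast called 224 genes, 950 with no filter (598 higher, 352 lower, against 109 and 115), 517 with DESeq2 and 67 to 197 with single libraries left out. The exposure term called 186 genes, 545 with no filter, 424 with DESeq2, 39 without the doubted libraries and the KO vehicle female together (23 positive and 16 negative, against 70 and 116) and 75 to 237 with single libraries left out. The cause of these shifts was not tested. Of 163 named genes that passed, 129 passed in all alternatives apart from the 1.5-fold requirement, 73 passed in that as well, and 0 changed sign. These genes were chosen on the main fit, and the alternatives use the same libraries. Their shared calls and signs are therefore a description and do not stand for the other called genes. Simulated differences between the sexes of 2-fold were recovered in 19.4% of genes, so the sex term has little reach at this sample size.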

Other observations

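Genes of tryptophan breakdown toward NAD were divided: 4 of 15 tested members rose in KO on PFOA and 3 fell (3 and 2 without the doubted libraries). Acmsd, which diverts the pathway away from NAD, averaged 45.9 ± 10.6 CPM in KO livers and 18.1 ± 3.24 CPM in hPPARa livers (SD, n = 6 and 5; edgeR adjusted p = 0.000273), and Kynu, the kynureninase, averaged 239 ± 20.8 CPM in KO and 151 ± 21.5 CPM in hPPARa.

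The imprinted noncoding RNA Meg3 had a lowest, median and highest level of 11.8, 33.3 and 121 CPM in KO livers, against 3.26, 2.17, 13.4, 10.03 and 10.95 CPM in hPPARa livers on PFOA. The groups overlapped, with a log2 fold change of 2.82 ± 0.40 (edgeR adjusted p = 0.00132), and the contrast on vehicle was 3.14 (adjusted p = 0.00179), at 35.5 CPM in KO and 2.97 CPM in hPPARa. Its neighbours on chromosome 12 in the RefSeq order of GRCm38.p6, looked up after the values were seen, included Rian at 2.55 and Mirg at 3.68 on PFOA and at 2.99 and 4.14 on vehicle, while Dio3 had −1.78 on PFOA. Of the 12 tested neighbours 2 rose and 4 fell, 50.0% called against 18.6% over all genes. Around Ppara on chromosome 15, 1 of 40 tested neighbours rose and 12 fell (32.5% called). The one that rose was Fbln1, a matrix protein, at 14.0 ± 5.74 CPM in KO and 2.36 ± 1.56 CPM in hPPARa (log2 fold change 2.67, adjusted p = 0.00112). On vehicle Fbln1 had a log2 fold change of 0.75 and did not pass (edgeR adjusted p = 0.286). Among the Ppara neighbours Pim3 alone passed there, at −1.31 (edgeR adjusted p = 0.0112). Whether such genes go with their place on the chromosome was not tested.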
